A study of Drosophila melanogaster with 4 samples.

Results

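The interior of chromosome arm 2L was examined in S2-DRSC cells of the fruit fly for dimethylation of lysine 9 on histone H3 (H3K9me2). It was taken as positions 1000001 to 20011544 of FlyBase release 5, which leaves out the 1 Mb next to the telomere and the 3 Mb next to the centromere. This span of 19.0 Mb holds 3802 windows of 5 kb, out of 33736 such windows in all sequences of the files, and 1544 bases at its end fill no window. Every window is a member, and none was chosen by its value. S2-DRSC is an established Drosophila melanogaster line, which the labels call male and trace to late embryos. It was profiled by ChIP-seq, which sequences the DNA that an antibody pulls down, in 2 H3K9me2 ChIP samples (antibody numbered 2 by the labels) and 2 matched inputs without immunoprecipitation. The cells carried no treatment that the labels name. Each ChIP sample has 1 list of clusters, the stretches that the authors called enriched with the matched input, and a combined list covers the series. The inputs enter only through those calls. No label ties the ChIP samples to separate cultures, and any spread given here may therefore be technical.

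H3K9me2 is written by histone methyltransferases and is read by heterochromatin protein 1, which binds methylated lysine 9 and compacts chromatin. In flies the mark is dense around centromeres, where repeats and few active genes lie. Regions inside the arms that replicate late and hold few active genes are known as intercalary heterochromatin. Replication was not measured here, so no cluster is assigned to that class. The span described here is called euchromatic by its position alone. The depth of each sample is unknown, because the lists give no reads, so a window outside clusters is not shown to lack the mark.

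Most of the 2L interior held no cluster. In replicate 1, 365 clusters covered 1.69 Mb, or 8.87% of the bases, and in replicate 2, 559 clusters covered 2.47 Mb, or 13.01%. The mean was 10.9 ± 2.93% of bases and 462 ± 137 clusters (SD, n = 2). Of the 3802 windows, 2871 (75.5%) had no cluster base in either replicate or in the combined list, against 73.6% of the 16375 windows in the interiors of 2L, 3L, 3R and X cut the same way. In 593 windows (15.6%) clusters of both replicates were present, against 17.5% of those 16375 windows. At least 50% of the bases were covered in both replicates in 299 windows (7.86%), against 8.85%. In 115 windows (3.02%) every base was covered in both, against 3.34%. Windows covered at 50% or more numbered 461 in replicate 2 alone (without replicate 1) and 313 in replicate 1 alone. The shares called in both replicates or free in all lists on the 2L interior lie near those of the 4 interiors together. Those 4 include 2L and differ among themselves. Windows reached in both replicates were 14.9% on 3L, 11.7% on 3R and 29.8% on X. Windows free in all lists were 77.2% on 3L, 81.9% on 3R and 56.6% on X.

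Replicate 2 reached more windows than replicate 1 in each class of coverage above 0. In replicate 1, 3183 windows were at 0, 306 were covered above 0 and under 50%, 195 from 50% to under 100%, and 118 completely. In replicate 2 the corresponding numbers of windows were 2916, 425, 296 and 165. Windows reached in replicate 2 alone numbered 293 and those reached in replicate 1 alone 26, so most disagreement ran one way. Of the 293 windows, 107 (36.5%) adjoined a window reached in both replicates on either side, and the others did not. Among all windows not reached in both, 6.30% had such a window next to them on the centromere side. The share of all those windows with one on either side was not counted. The share was higher in replicate 2 in 682 windows, higher in replicate 1 in 115, and equal above 0 in a further 115. A difference of more than 50 percentage points occurred in 95 windows with replicate 2 higher and in 3 with replicate 1 higher. In 2 windows replicate 2 was at 100% with nothing in replicate 1, and the reverse did not occur. Across the 593 windows reached in both, the shares had a Spearman rho of 0.845, a description over windows that share clusters and libraries.

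By base, replicate 2 contained nearly all of replicate 1. Bases covered in both samples amounted to 1.59 Mb, which is 94.2% of the replicate 1 coverage and 64.2% of the replicate 2 coverage. A further 885 kb was covered in replicate 2 alone and 97.2 kb in replicate 1 alone. The shared bases were thus 61.8% of those covered in either. Of the 365 replicate 1 clusters, 21 met no replicate 2 cluster, and the longest of these was 3613 bp. Of the 559 replicate 2 clusters, 253 met no replicate 1 cluster, with lengths up to 8103 bp and a median of 1723 bp. Agreement followed cluster length, weakly among replicate 1 clusters and steeply among those of replicate 2. Among replicate 1 clusters, 114 of 133 under 2 kb met a replicate 2 cluster, and 141 of 143 from 2 to under 5 kb. All 56 from 5 to under 10 kb and all 33 of 10 kb or more did so. Among replicate 2 clusters, 40 of 211 under 2 kb met a replicate 1 cluster, 140 of 217 from 2 to under 5 kb, 84 of 89 from 5 to under 10 kb, and all 42 of 10 kb or more. A longer cluster also offers more bases to meet.

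Clusters in the 2L interior were mostly short, and a few long ones held much of the covered length. The median length was 2622 bp for clusters of replicate 1 and 2603 bp for those of replicate 2, and the shortest cluster was 1001 bp in both. In replicate 1, 33 clusters of 10 kb or more made up 9.04% of clusters and 38.9% of cluster bases. In replicate 2, 42 such clusters made up 7.51% of clusters and 34.2% of bases. Clusters under 2 kb were 36.4% of replicate 1 clusters and 37.7% of replicate 2 clusters, with 11.8% and 12.6% of the bases.

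The authors' score for a cluster, whose scale is unstated, was higher in longer clusters. In replicate 1 the median score was 0.631 under 2 kb, 0.816 from 2 to under 5 kb, 1.12 from 5 to under 10 kb, and 1.69 at 10 kb or more. In replicate 2 these medians were 0.715, 0.920, 1.32 and 1.73. The Spearman rho of length and score was 0.773 over the 365 clusters of replicate 1 and 0.600 over the 559 of replicate 2, as descriptions of each list.

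Where 1 cluster of replicate 1 met exactly 1 of replicate 2, the ends lay close together. This applied to 231 pairs. Pairs had to overlap, and clusters that met more than 1 of the other replicate were left out. The short distances follow in part from that choice. Over the 462 ends of the pairs the median distance between the replicates was 343.5 bp, and 80.7% of ends lay within 1 kb of each other. The largest distance was 7131 bp. The cluster was longer in replicate 2 in 197 pairs and longer in replicate 1 in 34, and the medians over the pairs were 3111 bp for replicate 1 and 4113 bp for replicate 2. Their scores had a Spearman rho of 0.768 over the 231 pairs, which share the reference sequence and the caller. The wider calls of replicate 2 therefore added to its covered length beside its additional clusters.

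Clusters were grouped along the arm, and wide spaces separated the groups. The gap between neighbouring clusters had a median of 11.1 kb in replicate 1 and 6.54 kb in replicate 2. In replicate 1, 87 of 364 gaps were 2 kb or shorter and 94 were longer than 50 kb. In replicate 2, 153 of 558 gaps were 2 kb or shorter and 100 were longer than 50 kb. The gaps longer than 50 kb took up 75.4% of the interior in replicate 1 and 63.6% in replicate 2. A cluster with no neighbour within 20 kb on either side was the exception, with 80 of 365 in replicate 1 and 101 of 559 in replicate 2.

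The same grouping appeared in the windows. One window (5 kb) beyond a window reached in both replicates, 65.9% of windows were also reached in both, against 6.30% beyond any other window. At 20 kb these shares were 37.9% and 11.5%, and at 100 kb 24.2% and 14.01%. At 200 kb they were 16.6% and 15.4%, next to 15.6% for all windows. Neighbouring windows share clusters longer than a window, so the values at short distance partly restate cluster length. The grouping of windows in both replicates thus extended to about 100 kb.

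**Figure D1:**
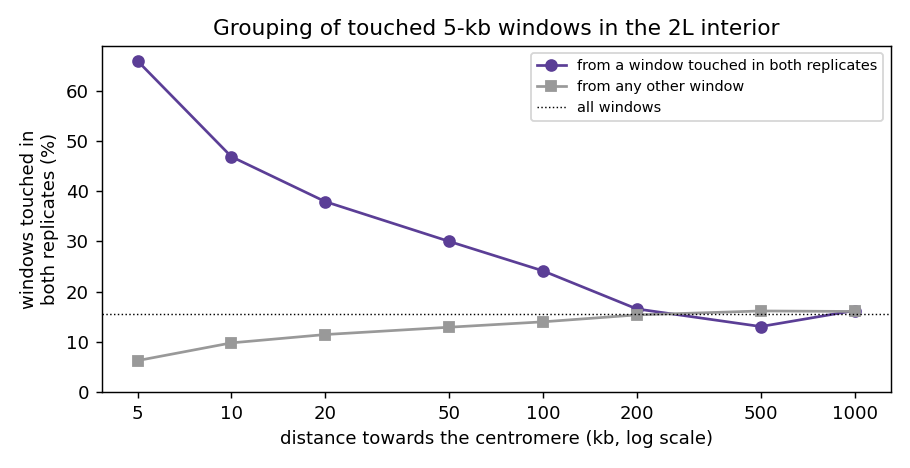
Share of 5-kb windows of the 2L interior reached by clusters of both replicates (y, %), by distance towards the centromere (x, kb, log scale), starting from windows reached in both (circles) or from any other window (squares). The dotted line is the share of all windows, 15.6%. The circles lie at 65.9% at 5 kb and at 16.6% at 200 kb.

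Along the arm the covered share varied between neighbouring megabases, and both samples had high and low shares in mostly the same bins. Of 19 bins of 1 Mb (the last also holds the 11544 bases left over), the lowest was 2 to 3 Mb, covered at 1.87% in replicate 1 and 3.03% in replicate 2 (2.45 ± 0.824%, SD, n = 2). The highest was 19 to 20 Mb, next to the centromere-side border, at 22.1% and 25.2% (23.6 ± 2.20%). Low bins also lay in the middle of the arm, at 11 to 12 Mb (3.07% and 5.29%) and at 15 to 16 Mb (2.36% and 5.08%). Between them stood bins of higher coverage, such as 5 to 6 Mb (14.7% and 18.0%), 8 to 9 Mb (16.1% and 21.6%) and 16 to 17 Mb (14.6% and 20.2%). The median of the 19 bin means was 8.70%. Replicate 2 was higher in all 19 bins, by a ratio from 1.09 at 6 to 7 Mb to 2.36 at 14 to 15 Mb, with a median of 1.51.

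The bins of replicate 1 and replicate 2 had a Spearman rho of 0.944 over the 19 bins of the same 2 libraries. The bin means had a rho of 0.463 with distance from the telomere-side border, again as a description. Coverage therefore did not climb evenly towards the centromere. The 4 bins from 1 to 5 Mb all lay at or under 6.33% on average, and the 19 to 20 Mb bin was at the top, but the bins between them alternated.

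Domains were defined as runs of bases covered in both replicates, joined across gaps of at most 5 kb and at least 20 kb long. The 2L interior held 22 of them, with a median length of 34.5 kb and lengths from 21.1 to 74.4 kb. The shortest domain was 21132 bp and the longest run that missed the limit was 19733 bp. Together the domains spanned 817 kb, or 4.30% of the interior, and contained 43.2% of the bases covered in replicate 1 and 30.8% of those in replicate 2. The rule requires bases covered in both, so the agreement inside domains is a description. Inside them 89.2% of bases were covered in replicate 1 and 93.3% in replicate 2, and outside them 5.26% and 9.40%. The other 197 joined runs were shorter, 124 of them under 5 kb. By the same rule the coverage of replicate 2 alone (without replicate 1) gave 38 domains and that of replicate 1 alone 23.

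The longest domain lay at 5153217 to 5227574 (74.4 kb). It was covered at 86.6% in replicate 1, in 7 clusters, and at 88.6% in replicate 2, in 3 clusters. Inside it was a gap of 4352 bp that was free of clusters in all 3 lists. The next, at 19582277 to 19653507 (71.2 kb), was covered at 93.3% and 94.7%, and 1 cluster of 64.6 kb in replicate 1 and of 65.3 kb in replicate 2 made up most of it. The domain at 14288122 to 14354006 (65.9 kb) was covered at 94.2% in 3 clusters of replicate 1 and at 99.8% in 2 clusters of replicate 2. These 3 were the domains longer than 45 kb, and they differed in build, from one nearly unbroken block to a row of pieces.

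The next 4 domains had nearly equal lengths. The domain at 19711697 to 19756344 (44.6 kb) was covered at 94.9% and 95.6% in replicates 1 and 2. At 6565976 to 6610377 (44.4 kb) the shares were 93.7% and 89.5%, the single domain of the 22 with more coverage in replicate 1. The domain at 12995083 to 13038953 (43.9 kb) was covered at 89.8% and 90.8%, in 4 clusters in each replicate. That at 19498340 to 19542157 (43.8 kb) was more broken, with 78.7% and 79.5% covered in 5 clusters of each.

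The last 3 of the 10 longest were shorter than 40 kb. At 8034018 to 8071276 (37.3 kb) coverage was 93.05% and 93.5%, with 1 cluster of 27.7 kb in replicate 1 and 27.6 kb in replicate 2. At 10343034 to 10379994 (37.0 kb) it was 82.8% in 6 clusters and 89.9% in 5. At 17495034 to 17531401 (36.4 kb) it was 93.7% in 4 clusters of replicate 1 and 97.98% in 2 of replicate 2. Of all 22 domains, 18 were covered at 80% or more in both replicates, and 4 were covered without a break in both. The lowest share was 63.6% in replicate 1, in the domain at 18716040 to 18752371, where replicate 2 had 87.9%.

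**Figure D2:**
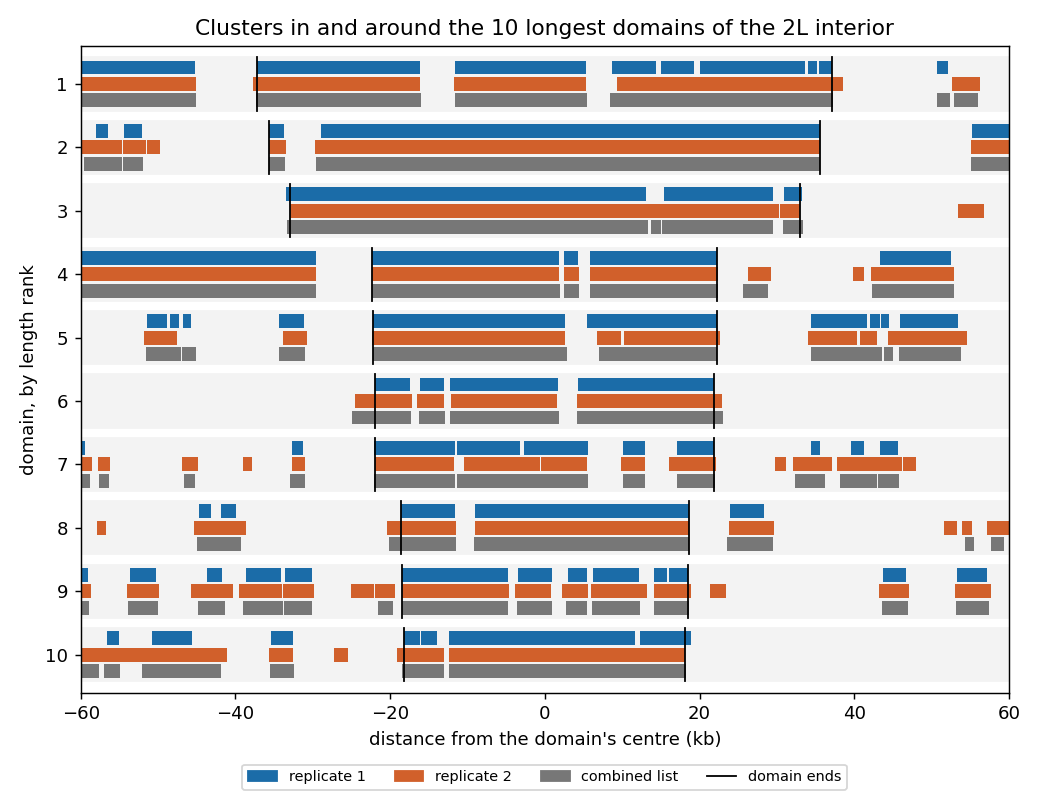
Clusters of replicate 1, replicate 2 and the combined list (bars) within 60 kb of the centre (x, kb) of each of the 10 longest domains of the 2L interior (y, by length rank), with black lines at the domain ends. Cluster ends coincide closely between the lists in most domains. The domain ranked 3 is divided into 3 clusters in replicate 1 and 2 in replicate 2.

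Some domains occurred in groups and others alone. Joining domains at most 100 kb apart gave 4 groups of 2 to 4 domains, which held 12 of the 22, and 10 domains stood alone. The grouping depends in part on the 5-kb limit for joining runs. The domain at 19711697 began 7.28 kb after the one before it, and that at 5153217 began 8.10 kb after. The largest group had 4 domains at 19498340 to 19756344, a span of 258 kb with 69.7% of bases in clusters of replicate 1 and 74.9% in clusters of replicate 2. At 16677876 to 16917563 (240 kb) 3 domains lay in a span covered at 38.4% and 46.2%, so their intervals lay mostly outside clusters. Another 3 lay at 8034018 to 8196575 (163 kb, 56.03% and 63.9%) and 2 at 5120750 to 5227574 (107 kb, 83.1% and 85.1%). The stretch from the telomere-side border to the first domain, at 4933230, was 3.93 Mb long and held none. The longest distance between neighbouring domains was 2.62 Mb, from 10379995 to 12995082, while the median distance was 328 kb. Of the 22 domains, 12 lay beyond 15 Mb.

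Of the 5 highest-scoring clusters of the combined list in the interior, 4 lay in domains. Scores were higher in longer clusters, as given above. Among the 22 domains, that at 18516343 to 18538046 had the lowest top scores, 0.799 in replicate 1 and 0.889 in replicate 2. The highest-scoring cluster of the interior was short and outside any domain. It lay at 19346922 to 19349034 in the combined list (2113 bp, score 3.00), and its partners ranked first in replicate 1 (1980 bp, score 2.83) and first in replicate 2 (2003 bp, score 3.06). It was singled out after its values were seen. The next highest in the combined list, at 5153121 to 5174360 (21.2 kb, score 2.49), belonged to the longest domain.

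The 5 longest clusters of the combined list were all found nearly whole in both samples. They lay at 19588265 to 19653505 (65.2 kb), 14287685 to 14334400 (46.7 kb), 19673045 to 19704442 (31.4 kb), 17500814 to 17531418 (30.6 kb) and 16889512 to 16917586 (28.1 kb). Coverage of each was at least 98.01% in replicate 1 and at least 99.06% in replicate 2. The cluster at 16889512 was divided into 3 in both replicates, and that at 17500814 into 2 in replicate 1. The combined list was made from this series, so this is no separate evidence.

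Stretches without a cluster base in any of the 3 lists took up 86.1% of the 2L interior, or 16.4 Mb. There were 564 of them with a median length of 6708.5 bp, since many were narrow spaces between neighbouring clusters. Long ones held much of the arm. The 48 stretches of at least 100 kb summed to 8.44 Mb, or 44.4% of the interior, and 15 of them were at least 200 kb long. The shortest counted was 100111 bp and the longest not counted was 91271 bp. None of the 48 bordered a domain directly, but that would need clusters of both replicates to end on the same base. Of the 48, 4 lay within 10 kb of a domain. The median distance to the nearest domain was 360 kb.

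The longest mark-free stretch was at 11277780 to 11703757 (426 kb, 84 windows), inside the bin from 11 to 12 Mb and inside the longest interval between neighbouring domains. A stretch of almost the same length lay at 15309831 to 15730587 (421 kb, 84 windows). The stretch ranked 4, at 15781477 to 16116582 (335 kb), followed it after 50.9 kb. That ranked 3, at 16918749 to 17260461 (342 kb), began 1.19 kb beyond the end of a domain, so that a long block of clusters and a long space without any were almost in contact. A replicate 2 cluster of 1001 bp lay between them.

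On the telomere side, 2242325 to 2576680 (334 kb) and 1760625 to 2045920 (285 kb) were free. The first of these was divided from a further free stretch by 1254 bp, called in replicate 2, and the whole span of 540 kb from 2242325 to 2782117 held nothing else in any list. The remaining 4 of the 10 longest were 5571699 to 5826090 (254 kb), 4577901 to 4830394 (252 kb), 8708201 to 8951082 (243 kb) and 10742876 to 10978148 (235 kb). All but the second of these lay in 1-Mb bins whose coverage was above the median bin mean of 8.70%, so dense and empty parts alternated within a megabase. Of 190 bins of 100 kb, 38 had no cluster base in any list, and 6 were covered above 50% in both replicates.

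The largest differences in covered share between the samples, in percentage points, fell in 1 stretch. In the 400 kb from 14600001 to 15000000, clusters covered 10.95% in replicate 1 and 46.7% in replicate 2. These bounds were set after the values were seen, as the 100-kb bins in which the replicates differed by more than 30 percentage points. The 4 bins were consecutive, with 6.39% and 36.8%, 15.9% and 54.7%, 7.40% and 47.2%, and 14.2% and 48.2% in replicates 1 and 2. The largest difference in any other 100-kb bin of the 2L interior was 26.9 points, and the median was 2.43 points. By ratio a bin outside the stretch stood further apart, from 15700001 to 15800000, with 1.15% in replicate 1 and 20.8% in replicate 2. Among 628 such bins on the 3L, 3R and X interiors, 1 bin, on X, exceeded 30 points.

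The replicate 2 coverage of this stretch consisted of many short clusters. It held 81 clusters of replicate 2 with a median length of 1768 bp, and 24 of replicate 1 with a median of 1625 bp. Of the 81, 62 met no replicate 1 cluster, 4 were 5 kb or longer, and 22 had at least the median score of the replicate 2 interior list, 0.885. The highest score was 1.16. The combined list covered 19.2% of the stretch. On its sides the samples differed less in percentage points, with 7.63% and 12.4% in the 100 kb before it and 19.4% and 26.2% in the 100 kb after it. The stretch is 2.10% of the interior and held 18.3% of all bases covered in replicate 2 alone. No domain lay in it, and 1 of its 80 windows was covered at 50% or more in both replicates. Without it, coverage of the interior was 8.82% in replicate 1 and 12.3% in replicate 2, and the shared bases were 66.1% of those covered in either. The stretch was chosen for its difference between the replicates. Its values on domains, on windows covered in both, on replicate 2 alone and on shared bases therefore largely follow from that choice.

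**Figure D3:**
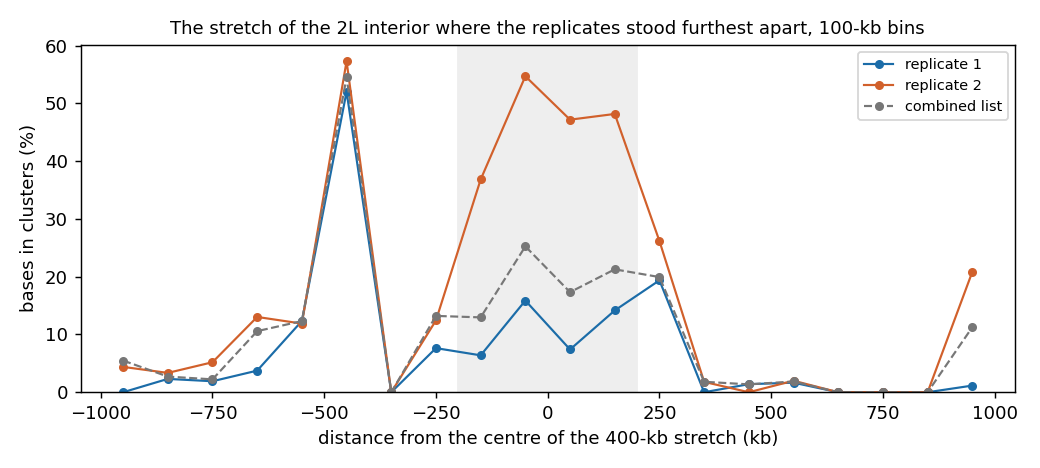
Bases in clusters (y, %) in 100-kb bins within 1 Mb of the centre (x, kb) of the 400-kb stretch, which is shaded, for replicate 1, replicate 2 and the combined list. Inside the shading replicate 2 lies between 36.8 and 54.7% and replicate 1 between 6.39 and 15.9%. Outside it no bin of the 2L interior differs by more than 26.9 points.

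The 2L interior was set beside those of 3L, 3R and X, cut in the same way. Its covered share, 8.87% and 13.01% in replicates 1 and 2, compared with 8.53% and 11.5% on 3L, 6.19% and 8.83% on 3R, and 18.03% and 24.2% on X. The difference 2L minus 3L was 0.926 ± 0.834 percentage points (SD, n = 2), close in size to its own spread. Without the 400-kb stretch, left out of 2L while 3L was kept whole, it was 0.541 ± 0.354 points. That stretch was chosen for its difference between the replicates, so the smaller spread follows in part from the choice. With the whole 2L interior, the difference was 3.42 ± 1.06 points against 3R and -10.2 ± 1.47 points against X, both larger than the spread between the samples. With 2 samples an exact paired permutation test cannot give a two-sided p below 0.5, so no difference between arms was tested and none is called particular to 2L.

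Domains of the same definition numbered 22 on the 2L interior, or 11.6 per 10 Mb, against 10.2 on 3L, 5.86 on 3R and 21.2 on X. The longest measured 74.4 kb on 2L, against 135 kb on 3L, 59.7 kb on 3R and 170 kb on X. Mark-free stretches of at least 100 kb were about as frequent on 2L (25.2 per 10 Mb) as on 3L (25.8) and 3R (25.9), while X had 8.68 per 10 Mb. They took up 44.4% of the interior on 2L, against 42.3% on 3L, 47.5% on 3R and 12.8% on X. These counts rest on both samples jointly and have no spread of their own.

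**Figure D4:**
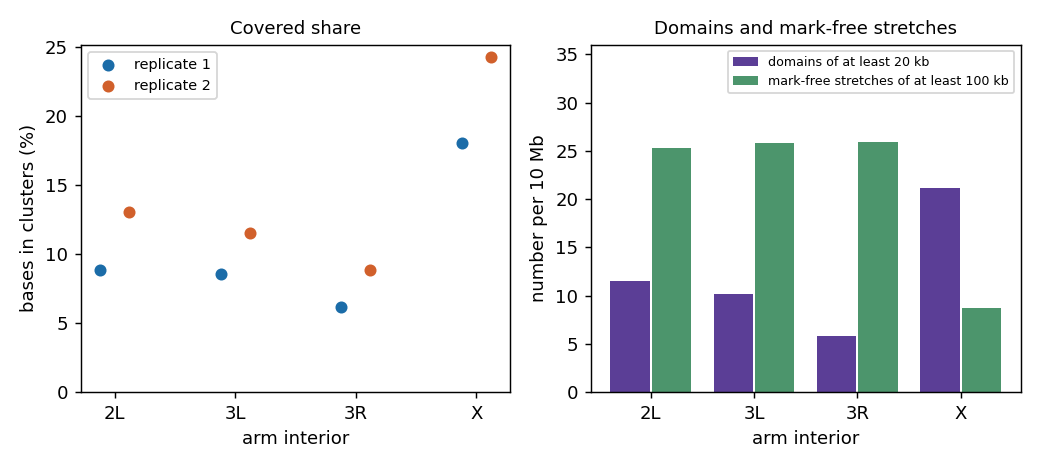
Left: bases in clusters (y, %) for replicate 1 and replicate 2 (points) in the interiors of 2L, 3L, 3R and X. Right: number per 10 Mb (y) of domains of at least 20 kb and of mark-free stretches of at least 100 kb in the same interiors. The 2L points, 8.87% and 13.01%, lie near those of 3L and under those of X.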

How the data were processed

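The deposited files list clusters called by the authors on FlyBase release 5, per the file headers, with a start, an end and a score. Each ChIP list was called with its matched input, per the labels. The submitters' processing notes name Bowtie 0.12.7. For the caller, its threshold, the read filters and the making of the combined list, the sources used here give nothing. The score is the deposited value of each cluster and has no stated scale, so it was compared within a list or as ranks. The lists give no depth, and no interval from counts was possible. Covered shares, windows, domains and mark-free stretches were computed from the positions as deposited with Python 3.11.15, NumPy 2.4.6 and SciPy 1.17.1, after a check on simulated clusters. A cluster was counted in an interior by its midpoint, and bases were clipped at the borders. Values exist for 1 group of 2 samples, so no test across groups was run. The regions named are the 10 longest domains, the 5 longest combined clusters, the 10 longest mark-free stretches and the extreme 1-Mb bins, plus regions said to be singled out. The span and these rules were chosen with earlier results of these data known. Alternatives were a score limit, a length minimum, other borders, window lengths and joining distances, each replicate alone, and leaving out the 400-kb stretch. The annotation used here is of release 6, so genes and sequences were not analysed here.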

Additional observations from a re-analysis of the deposited data

How the results depend on the processing

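Of 56 recomputed values, 39 stayed within 1.5 times (counts) or within 1 SD (covered share and difference between arms), and none changed sign. Part of this was fixed in advance. Each of 2 replicates lies within 1 SD of their mean, so leaving 1 out could not move the covered share or the difference. The windows free in all lists, 2871 of 3802, had no room to rise 1.5 times. Counts and shares cannot change sign, so the sign bears on the difference between arms alone. The shared share has no spread, so each of its alternatives was counted as moved. With clusters at or above the median score of their whole list, the covered share was 4.64%, with 77 clusters on average, 132 windows covered at 50% or more in both replicates, 13 domains, a shared share of 61.4% and a difference of -1.49 points between 2L and the mean of 3L, 3R and X (-1.95 ± 0.143 with all clusters). The smaller covered share and counts follow from leaving out clusters. The negative sign of the mean difference comes from X. With all clusters, 2L minus 3L was 0.926 points, 2L minus 3R 3.42 points and 2L minus X -10.2 points. The recomputed values hold the difference from the mean of these arms, not from each arm. With clusters of at least 2 kb there were 290 clusters, a shared share of 64.2% and a difference of -1.70 points. With 2 Mb and 5 Mb left out at the arm ends, these last values were 59.4% and -1.45 points. Without the 400-kb stretch they were 66.1% and -2.33 points, with the other arms left whole. This alternative was added after the data were seen, and the stretch was chosen for its difference between the replicates. For the moved shared shares and differences the cause was not tested. A limit of 80% per window left 183 windows. Counted by cluster, both replicates covered 50% or more of 61.1% of combined clusters. With 1 replicate left out, windows covered at 50% or more ranged from 313 to 461 and domains from 23 to 38, the higher number in each case without replicate 1. Domains numbered 19 to 30 over the joining distances and the combined list. No paired analysis was possible because cluster lists are at hand for the ChIP samples alone, so that an input cannot be set against the ChIP sample of its number. Arms were compared within each ChIP sample. Depth is unknown, and the clusters found in 1 sample were mostly short.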

Other observations

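The combined list covered 2102 kb of the 2L interior in 452 clusters. By base, 75.4% of it was covered in both replicates, 17.1% in replicate 2 alone, 4.17% in replicate 1 alone and 3.36% in neither. It took in the replicates' separate bases unequally, with 90.1% of those covered in replicate 1 alone and 40.6% of those covered in replicate 2 alone. In 19 windows the combined list had a cluster where neither replicate had one.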
